A study of Homo sapiens with 6 samples.

Results

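The 7 miRNAs described here are mature products of miRNA genes that lie inside the human HOX clusters. They are hsa-miR-10a-5p, hsa-miR-10a-3p, hsa-miR-10b-5p, hsa-miR-10b-3p, hsa-miR-196a-5p, hsa-miR-196b-5p and hsa-miR-615-3p, 7 of the 2576 mature miRNAs listed for each library, and they were chosen by name. MIO-M1 is an established line of human Müller glia, the supporting glia that span the retina, and is of WT genotype. The study compared small RNA libraries of 3 samples of whole cells (passage 22, passage 24 and passage 26) with libraries of the extracellular vesicles (EV) that cells at passages 23, 25 and 27 released into the culture medium. All cultures were grown in DMEM with fetal calf serum. The cells were then washed and kept in medium without serum, per the labels, or in medium depleted of vesicles, per the study's methods, and EV were collected from it by serial centrifugation. Intact EV were treated with RNase A before RNA was extracted. Different kits were used to extract RNA from cells and from EV, so kit and source cannot be told apart. Replicates are passages of a single line, so p-values measure the spread between those cultures and not between people.

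The HOX clusters encode the transcription factors that give the body axis its head-to-tail identity, and several miRNA genes sit between or within the HOX genes. Those miRNAs tend to be transcribed with their neighbours, and many of their known targets are HOX mRNAs. miR-10a and miR-10b are sister miRNAs of the HOX4 region and are also expressed in blood vessels and blood cells. miR-196a and miR-196b lie near the HOX9 and HOX10 genes, are expressed mainly in posterior tissues, and repress HOXB8. miR-615 is encoded within HOXC5. The retina and forebrain lie in front of the domains in which HOX genes are normally active. A miRNA precursor yields a 5p and a 3p arm, of which usually one is kept. Bases 2 to 8 of the mature miRNA, the seed, pair with target mRNAs.

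The sequences are shown because seeds group the miRNAs and because near-copies bear on how reads were assigned. Entries were matched for 6 of the 7 miRNAs, all but miR-10b-5p. Its sequence could not be compared with miR-10a-5p here, though both were summed as near-identical arms in an alternative fit. In each sequence, read 5′ to 3′ from RefSeq (GRCh38.p14), the capitals mark the seed.
miR-10a-5p: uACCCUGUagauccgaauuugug
miR-10a-3p: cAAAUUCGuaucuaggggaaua
miR-10b-3p: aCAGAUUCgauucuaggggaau
miR-196a-5p: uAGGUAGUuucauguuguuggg
miR-196b-5p: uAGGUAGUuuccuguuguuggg
miR-615-3p: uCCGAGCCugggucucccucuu
miR-196a-5p and miR-196b-5p shared 21 of 22 bases and differed by A12C (miR-196a-5p first, counted from its 5′ end). Their seed, AGGUAGU, was held by these 2 alone among 2370 human mature miRNAs in RefSeq. The same 7 letters stand 1 base further in, from base 3, in let-7a-5p, so that the seeds differ. The 3p arms of miR-10a and miR-10b shared the 11 bases UCUAGGGGAAU but had different seeds.

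In GRCh38, with the GENCODE 29 annotation, the precursors of these miRNAs are spread over all 4 HOX clusters. The HOXB cluster spans chr17:48528526-48729178 and holds 10 HOX genes with MIR10A and MIR196A1. MIR10A (chr17:48579838-48579947, minus strand) falls in the UTR of an annotated HOXB4 transcript and in an intron of HOXB3. MIR10B (chr2:176150303-176150412, plus strand), in the HOXD cluster, falls in an intron of a HOXD3 transcript, 810 bases from HOXD4. miR-196a-5p is made from 2 loci. MIR196A1 (chr17:48632490-48632559, minus strand) lies in an intron of a long HOXB7 transcript, 6134 bases from HOXB9, and MIR196A2 (chr12:53991738-53991847, plus strand) lies between HOXC10 and HOXC9 in an intron of a HOXC6 transcript. MIR196B (chr7:27169480-27169563, minus strand) lies in the HOXA cluster, 1028 bases from HOXA10, in an exon of 1 of 3 overlapping HOXA9 transcripts. MIR615 (chr12:54033950-54034045, plus strand) lies in an intron of HOXC5. The deposited count of miR-196a-5p covers both of its loci, which cannot be told apart.

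The total miRNA count was 396025 to 3990900 in whole cells and 1225541 to 3134561 in EV. Levels are given in CPM, the counts per 1000000 miRNA counts of the library, so a level is a share of the miRNA reads and not an amount per cell or per vesicle. The Müller miRNAs on a fixed list of 8 summed to 338035 to 364434 CPM in whole cells and 191158 to 245253 CPM in EV. Of the 8, 0 were higher and 1, miR-204-5p, was lower in EV. The study's own list of miRNAs reported for rodent Müller glia holds miR-16-5p in place of miR-204-5p. miR-16-5p was higher in EV (log2 fold change 1.70, edgeR adjusted p = 0.0109), from a mean of 32624 to 104556 CPM. The summed level and the calls therefore depend on which miRNAs are listed. The neuronal miR-124-3p had a count of 0 in all 6 libraries. A list of 10 miRNAs of blood, vessels and serum summed to 265 to 1204 CPM in whole cells and 2253 to 3213 CPM in EV. Of its 6 tested members, 5 were higher in EV, where 14.7% of all 430 tested miRNAs were. Its miR-451a, miR-144-3p and miR-142-5p were at 0 in all whole cell libraries. The tested member that did not pass, miR-486-5p (edgeR adjusted p = 0.487), held most of the whole cell sum. It had 164, 875 and 1161 CPM in whole cells and 1217, 1711 and 1197 CPM in EV. A list of 3 photoreceptor miRNAs summed to 227 to 333 CPM in whole cells and 1151 to 1218 CPM in EV, with 2 of 3 higher. The lists are named for tissues, while all libraries came from the MIO-M1 line or its culture medium, with no photoreceptors sampled. The part of blood or serum RNA in the values below was not tested.

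The 5p arms of miR-10a and miR-10b made up a larger share of the miRNA reads in EV than in whole cells. miR-10a-5p was 4.05-fold and miR-10b-5p 6.63-fold higher. None of the other HOX-cluster miRNAs tested passed the test. Of the 7, 6 reached the required 5 CPM in 3 libraries. Of these 6, 2 were higher in EV, 0 were lower and 4 did not pass (edgeR quasi-likelihood test, Benjamini-Hochberg adjusted p below 0.05). Over all 430 miRNAs tested, 14.7% were called higher in EV and 28.6% were called in either direction. DESeq2 called the same number of the 6, 2, where it called 14.9% of all miRNAs higher. The median log2 fold change of the 6 was 1.69, against -0.23 over all 430 miRNAs. Most of the 6 are arms of the miR-10a and miR-10b precursors, so the median mainly describes these. miR-196a-5p and miR-196b-5p stood at 0.64 and -0.33.

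miR-10a-5p had 1071, 967 and 773 CPM in whole cell replicates 1, 2 and 3, and 3168, 3956 and 4126 CPM in the EV replicates. Every EV library stood above every whole cell library. The mean was 937 ± 151 CPM (SD, n = 3) in whole cells and 3750 ± 511 CPM (SD, n = 3) in EV. Its log2 fold change was 2.02 (SE 0.29, edgeR adjusted p = 0.00462). By mean level it moved from rank 70 in whole cells to rank 43 in EV.

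miR-10b-5p had 1076, 815 and 734 CPM in whole cells and 3784, 6354 and 7034 CPM in EV. The EV libraries again lay above all whole cell libraries, with the lowest value in EV replicate 1. The mean was 875 ± 179 CPM (SD, n = 3) in whole cells and 5724 ± 1714 CPM (SD, n = 3) in EV. The fitted log2 difference was 2.73, with an SE of 0.34 and an adjusted p of 0.00331 (edgeR). Its rank moved from 77 to 31. At an adjusted p below 0.05, it alone among the HOX-cluster miRNAs also reached the log2 fold change of 2.5 set in the study's methods. Of all miRNAs, 11.9% did so in this direction. With DESeq2 the value of miR-10b-5p was 2.49, just under that limit. The study's own DESeq2 list of miRNAs higher in EV nevertheless holds both 5p arms, miR-10b-5p at 2.49 and miR-10a-5p at 1.79.

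The lowest count of either arm was 424 reads, for miR-10a-5p in whole cell replicate 1. On the log2 scale the SD of miR-10a-5p was 0.14 in whole cells and 0.23 in EV, and 86.5% of the 430 miRNAs varied more between EV libraries. The SD of miR-10b-5p was 0.065 in whole cells and 0.43 in EV, where 74.2% of miRNAs varied more. Both percentages are over miRNAs of all levels, while these arms ranked 43 and 31 by level in EV. No comparison at matched level was made. When the reads of both 5p arms were summed, the log2 fold change was 2.38 (SE 0.31, edgeR adjusted p = 0.00393). Both were higher and past the test in each alternative that gave them a value. The values ran from 1.48 to 2.10 for miR-10a-5p and from 2.39 to 2.80 for miR-10b-5p, the lowest for miR-10a-5p being the fit with the trend on GC content removed, which gave no value for miR-10b-5p.

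**Figure D1:**
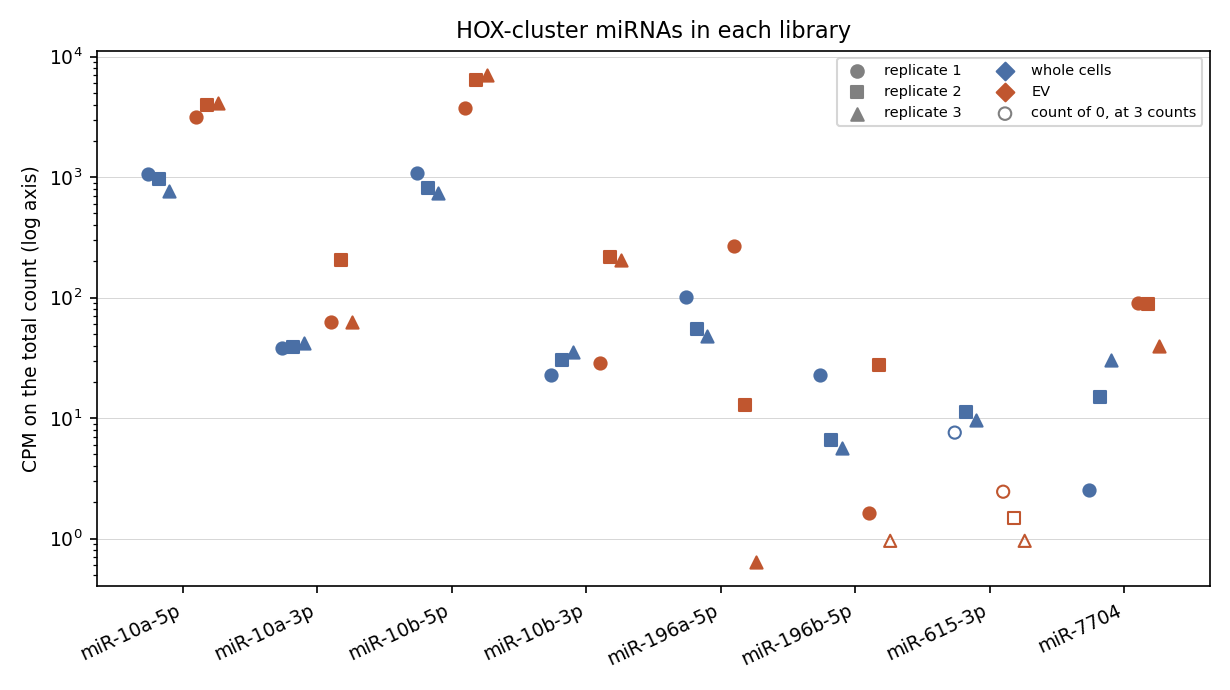
Level of each HOX-cluster miRNA, and of miR-7704, in each library, in CPM on a log axis, with whole cells in blue, EV in orange and symbols for replicates 1 to 3. Open symbols are counts of 0, drawn at the level of 3 counts. The EV libraries of miR-10a-5p and miR-10b-5p sit between 3168 and 7034 CPM, above the whole cell libraries at 734 to 1076 CPM.

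The 3p arms of the same precursors were far less abundant, and neither passed the test. miR-10a-3p had 37.9, 39.1 and 42.3 CPM in whole cells, on 15, 156 and 53 reads, and 62.8, 205 and 62.5 CPM in EV. The EV libraries were all higher, but EV replicate 2 stood well above the others. Its log2 fold change was 1.35 (SE 0.82, edgeR adjusted p = 0.299), and it was 0.64 without EV replicate 2 and 0.24 with the GC trend removed. With it, 3 of the 6 tested HOX-cluster miRNAs had every EV library above every whole cell library, where 20.5% of all 430 did.

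miR-10b-3p had 22.7, 30.3 and 35.1 CPM in whole cells, on 9, 121 and 44 reads, and 28.6, 216 and 205 CPM in EV. EV replicate 1 lay among the whole cell libraries and the other EV replicates above them. The log2 fold change was 2.25 (SE 0.95, edgeR adjusted p = 0.136). It was 1.43 with the GC trend removed (edgeR adjusted p = 0.342) and 1.76 to 2.62 with 1 library left out. Of these fits, the one without EV replicate 1, at 2.62, was the 1 of 14 alternatives in which this arm passed (edgeR adjusted p = 0.0287).

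Levels of arms and sisters can also be compared within a library, where total count and scaling drop out. The share of miR-10b-5p among the reads of both miR-10 5p arms was 50.1%, 45.7% and 48.7% in whole cells and 54.4%, 61.6% and 63.0% in EV. All EV libraries were above all whole cell libraries, with means of 48.2% ± 2.25 and 59.7% ± 4.61 (SD, n = 3 each). The widest 95% Wilson interval among these, for whole cell replicate 1 with 850 reads, ran from 46.8% to 53.5%, and it covers counting error only. The difference of 11.5 percentage points had an exact two-sided permutation p of 0.1, the smallest that 3 against 3 libraries allow (0.4 after Benjamini-Hochberg adjustment over the 4 shares tested). Whether reads of either near-identical sister were counted for the other was not tested.

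The 3p share of the miR-10a reads was 3.42%, 3.88% and 5.19% in whole cells and 1.94%, 4.92% and 1.49% in EV. That of the miR-10b reads was 2.07%, 3.59% and 4.57% in whole cells and 0.749%, 3.29% and 2.83% in EV. The groups overlapped in both cases. The differences were -1.38 and -1.12 percentage points (exact two-sided permutation p = 0.3 and 0.4, adjusted p = 0.533 for each). In every library the 5p arm gave most reads of both precursors.

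**Figure D2:**
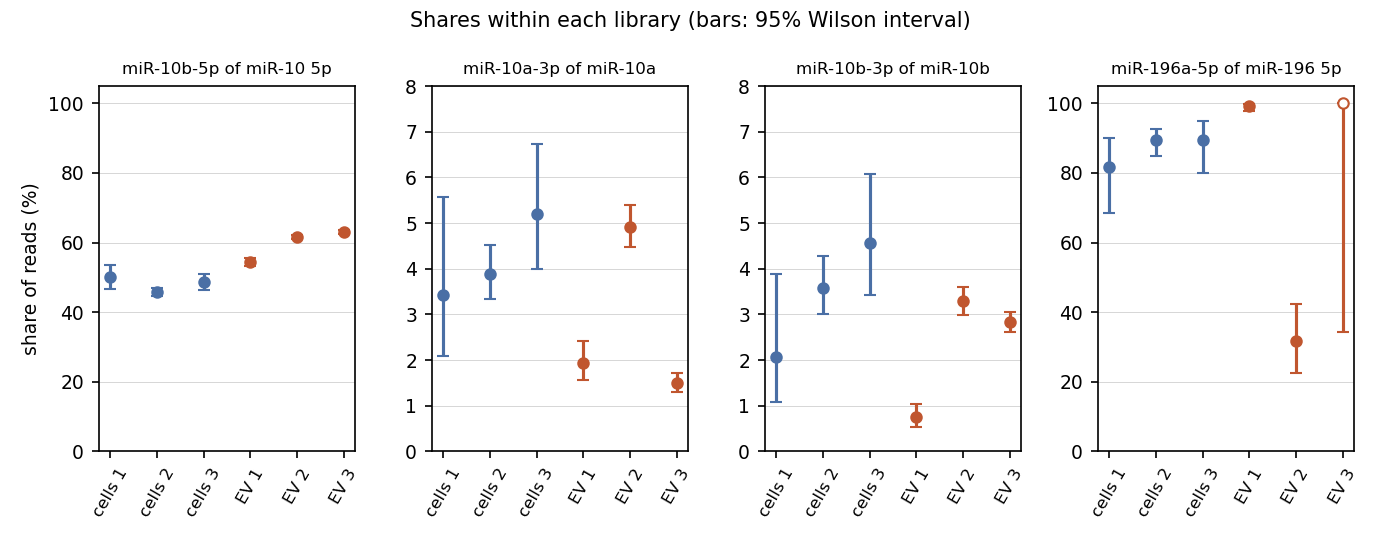
Shares within each library, in percent, with 95% Wilson intervals: miR-10b-5p among the miR-10 5p arms, the 3p arm among the reads of miR-10a and of miR-10b, and miR-196a-5p among the miR-196 5p arms. The first is 45.7% to 50.1% in whole cells (blue) and 54.4% to 63.0% in EV (orange), and in the other panels the groups overlap, with the open point resting on 2 reads.

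miR-196a-5p and miR-196b-5p were detected in whole cells but gave values in EV that depended on the library. miR-196a-5p had 40, 219 and 60 reads in whole cells, where its level was 54.9 and 47.9 CPM in replicates 2 and 3 and about 2 times as high in replicate 1. In EV it had 266, 12.8 and 0.638 CPM. EV replicate 1 was above all whole cell libraries and EV replicates 2 and 3 were below them. Its reads in EV numbered 326, 26 and 2. The log2 fold change was 0.64 (SE 1.67, edgeR adjusted p = 0.819), and it was -3.54 without EV replicate 1 (edgeR adjusted p = 0.123). The SD between EV libraries was 3.09 on the log2 scale, against 0.32 in whole cells. Only 0.930% of the 430 miRNAs varied more between EV libraries, and the median SD was 0.84.

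miR-196b-5p, its near-copy, had 22.7, 6.51 and 5.59 CPM in whole cells and 1.63, 27.5 and 0 CPM in EV. Its high EV library was replicate 2, with 56 reads, and not replicate 1, with 2. The log2 fold change was -0.33 (SE 1.69, edgeR adjusted p = 0.916), and it was -3.87 without EV replicate 2 (edgeR adjusted p = 0.149). A count of 0 in EV replicate 3 allows up to 0.957 CPM, so a level like that of the whole cells was not seen there.

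The share of miR-196a-5p among the reads of both miR-196 5p arms was 81.6%, 89.4% and 89.6% in whole cells, on 49, 245 and 67 reads. In EV it was 99.4% of 328 reads in replicate 1 (95% Wilson interval 97.8% to 99.8%) and 31.7% of 82 reads in replicate 2 (22.6% to 42.4%). EV replicate 3 held 2 reads and gave no share. The whole cell libraries lay close together, and the EV libraries fell on either side of them. The difference of -21.3 percentage points rests on 2 EV libraries (exact two-sided permutation p = 0.8). Summed, both miR-196 5p arms differed by 0.50 on the log2 scale, with an SE of 1.55 (edgeR adjusted p = 0.859).

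**Figure D3:**
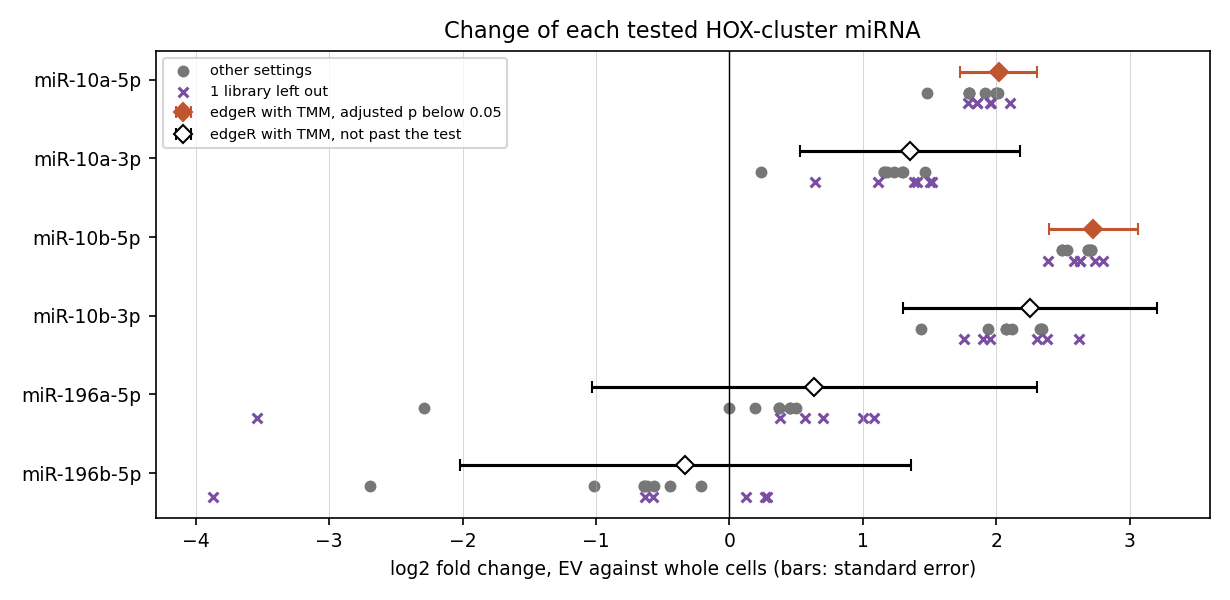
Log2 fold change of EV against whole cells for the 6 tested HOX-cluster miRNAs: diamonds give the edgeR value with its standard error, grey dots the other settings and crosses the fits with 1 library left out. miR-10a-5p and miR-10b-5p stay between 1.48 and 2.80, while miR-196a-5p reaches -3.54 and miR-196b-5p -3.87 when a single EV library is left out.

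miR-615-3p was seen only in whole cells. It had 0, 45 and 12 reads there (0, 11.3 and 9.58 CPM) and 0 reads in all 3 EV libraries. Whole cell replicate 1 was the shallowest library, and its 0 allows up to 7.58 CPM, somewhat below the level of the other whole cell replicates. At their mean level, 4.13 reads would be expected in it. The zeros in EV allow up to 2.45, 1.47 and 0.957 CPM. The mean of 6.95 CPM in whole cells was at least 4.28-fold higher than the EV mean with each EV library set to 3 counts. miR-615-3p did not reach 5 CPM in 3 libraries and was not among the 430 tested. Without that filter its edgeR adjusted p was 0.0402, in a fit that called 240 of 1188 miRNAs. Whole cell replicates 1, 2 and 3 had reads of 586, 1058 and 811 miRNAs, and the EV replicates of 431, 427 and 329. Absence from EV was therefore not shown to be particular to miR-615-3p.

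Of the mature miRNAs in the tables, 12 are encoded inside the HOX clusters. Besides the 7, miR-196a-3p, miR-196b-3p, miR-615-5p and miR-3185 had a count of 0 in all 6 libraries. The remaining one, miR-7704, has its precursor (chr2:176188843-176188901, plus strand, GRCh38) in the coding exon of HOXD1, opposite the antisense RNA HAGLR. It had 2.53, 15.0 and 30.3 CPM in whole cells and 90.6, 89.3 and 39.9 CPM in EV. The EV libraries were all above the whole cell libraries, but the whole cell libraries rested on 1, 60 and 38 reads. Its log2 fold change was 2.05 (SE 1.17, edgeR adjusted p = 0.270), and it ran from 1.42 to 5.05 over 15 alternative fits. The highest, with the GC trend removed, was the only one to pass (edgeR adjusted p = 0.0118).

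Order by level was similar in both sources at the top and not below. A read here stands for a whole mature miRNA, and the arms are of nearly the same length, so no correction for length was made. In whole cells miR-10a-5p and miR-10b-5p overlapped, miR-196a-5p followed at 67.9 ± 28.9 CPM, then miR-10a-3p at 39.8 ± 2.30 CPM and miR-10b-3p at 29.4 ± 6.26 CPM (SD, n = 3 each), with no overlap between neighbours from miR-10b-5p down to miR-10b-3p. miR-196b-5p at 11.6 ± 9.64 CPM and miR-615-3p overlapped. In EV miR-10b-5p was above miR-10a-5p within each of the 3 libraries although the ranges overlapped. The next were miR-10b-3p at 149.7 ± 105 CPM, miR-10a-3p at 110 ± 81.9 CPM and miR-196a-5p at 93.1 ± 150 CPM, and their ranges overlapped each other. miR-196b-5p, at 9.70 ± 15.4 CPM (SD, n = 3 each), overlapped miR-196a-5p and lay below both 3p arms.

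Summed, the 7 miRNAs took 0.197% of the miRNA reads in whole cells and 0.984% in EV. The sums were 2331, 1924 and 1648 CPM in whole cells and 7310, 10770 and 11428 CPM in EV, a log2 ratio of the means of 2.32. The miR-10 5p arms held 91.5% to 92.6% of the summed reads in whole cells and 95.1% to 97.7% in EV, so the sum describes these arms more than the others. Without miR-10b-5p the log2 ratio was 1.91.

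miR-99a, miR-99b and miR-100 are relatives of miR-10 by sequence that lie outside the HOX clusters and carry another seed. They are shown to be set beside the miR-10a-5p sequence.
miR-99a-5p: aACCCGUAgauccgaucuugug
miR-99b-5p: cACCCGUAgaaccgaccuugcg
miR-100-5p: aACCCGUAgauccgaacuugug
The longest stretch miR-10a-5p shared with them, GUAGAUCCGAA, was 11 bases long and was found in miR-100-5p. None of the 3 relatives passed the test, and their log2 fold changes were 1.28 for miR-99a-5p, 1.03 for miR-100-5p and -0.83 for miR-99b-5p. miR-100-5p had 8532, 6715 and 5758 CPM in whole cells and 22517, 7677 and 10028 CPM in EV, with EV replicate 1 well above the rest. miR-99b-5p had 4144, 10312 and 10049 CPM in whole cells and 4643, 3133 and 6231 CPM in EV, with overlapping groups. The miR-10 5p arms gave 12.0, 8.85 and 8.17 reads per 100 reads of the 3 relatives in whole cells and 15.7, 71.8 and 55.7 in EV. All EV values were above all whole cell values, EV replicate 1 by the smallest margin (exact two-sided permutation p = 0.1, the smallest possible). This ratio was added after the values had been seen.

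Tetramers that are known from other cells as motifs of vesicle sorting were looked for in the mature sequences, as letters alone. CCCU was found in miR-10a-5p, at bases 3 to 6, and in miR-615-3p, at bases 16 to 19, and in 10.8% of the 390 tested miRNAs with a sequence. GGAG, held by 10.5% of them, and GGCU, held by 14.4%, were in none of the 6 HOX-cluster miRNAs with a sequence. miR-10b-5p had no sequence entry and was not searched for any of these motifs. The first of the CCCU miRNAs was higher in EV and the second was not detected there.

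**Figure D4:**
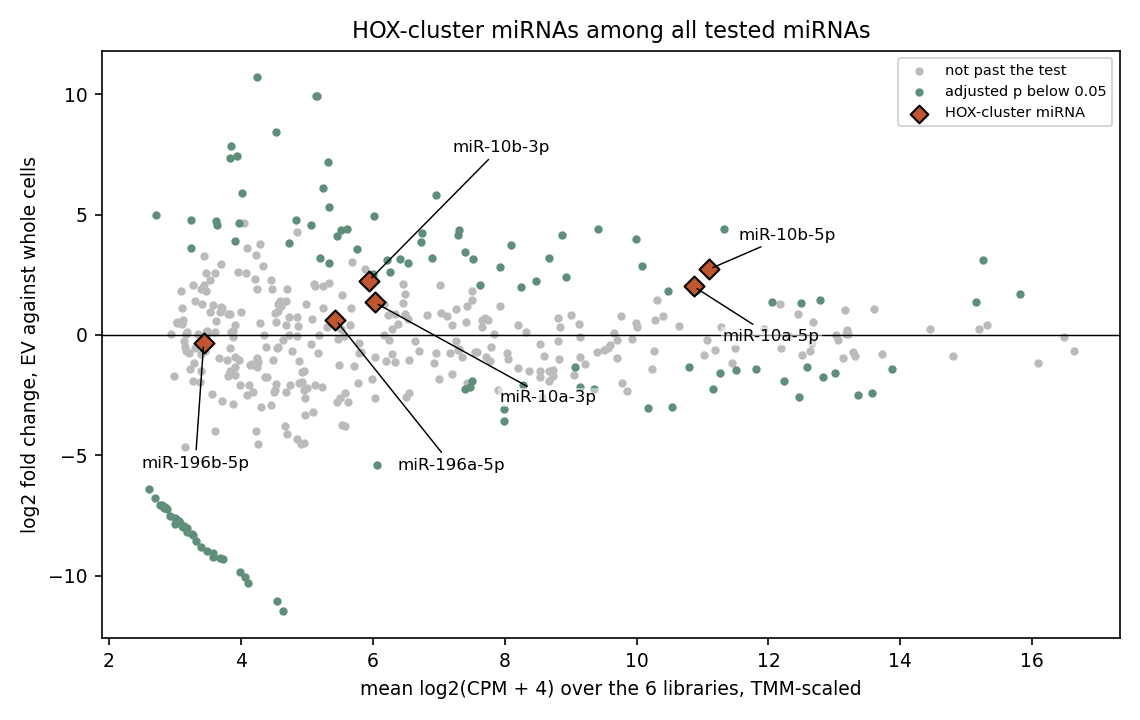
Log2 fold change of EV against whole cells for the 430 tested miRNAs against their mean level, log2(CPM + 4) over the 6 libraries, with green for an adjusted p below 0.05 and diamonds for the 6 HOX-cluster miRNAs. miR-10a-5p and miR-10b-5p lie apart from the other 4 in level, at log2 fold changes of 2.02 and 2.73, between which miR-10b-3p lies at 2.25. The slanted row at lower left holds miRNAs whose EV libraries are at or near 0, where the fitted value depends on the prior count.

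The miRNAs whose pattern over the 6 libraries was most like that of each HOX-cluster miRNA were found by the root mean square difference of centred log2(CPM + 4), over 429 others. For miR-10a-5p they were miR-182-5p, at 0.153, and miR-16-5p, at 0.171, and miR-10b-5p was the ninth, at 0.380. miR-182-5p, one of the 3 miRNAs on the photoreceptor list, had 215, 153 and 129 CPM in whole cells and 668, 756 and 875 CPM in EV. For miR-10b-5p they were miR-660-5p, at 0.217, and miR-182-5p, at 0.299. For miR-10b-3p they were miR-140-5p and miR-664a-5p, at 0.564 and 0.569, and for miR-10a-3p miR-127-5p and miR-628-3p, at 0.302 and 0.339.

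For miR-196b-5p the nearest were miR-96-5p, at 0.336, and miR-29b-2-5p, at 0.419. Both had reads in EV replicate 2 alone among the EV libraries, at 44.6 and 42.2 CPM. For miR-196a-5p they were miR-132-5p and miR-191-3p, at 0.789 and 0.821. Both were at 0 in EV replicates 2 and 3 and at 58.7 and 39.2 CPM in EV replicate 1. The pair of miR-196 5p arms was far apart by this measure, miR-196b-5p being number 216 of 429 for miR-196a-5p.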

How the data were processed

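Small RNA libraries of 3 whole cell and 3 EV samples of MIO-M1 cells were analysed. The authors trimmed and aligned the reads and deposited the raw count of reads per mature miRNA, 1 table per library. Per the file headers, featureCounts 1.5.0-p1 (strand setting 1) was run on the mature annotation of miRBase 20 after Bowtie 1. The methods instead give Bowtie2 and a later miRBase, and the build of the tables' coordinates is not given in the sources used here. Whether reads matching several loci or miRNAs were kept, and whether the kit's molecular identifiers were used, is not stated. Intervals and floors therefore cover counting error only.

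The filter asked for 5 CPM or more in 3 or more of the 6 libraries. The test was the quasi-likelihood test of edgeR 4.0.16 (R 4.3.3) on TMM-scaled counts, with adjustment over all 430 miRNAs and a threshold of 0.05. DESeq2 1.42.0 was an alternative, next to other scalings, no filter, thinning to the smallest library, removal of a GC trend, summing of near-identical arms, stricter thresholds, each library left out and, added after seeing the data, a block of neighbouring passages. Sequences were matched for 390 of the 430. CPM in the text were taken on the total count, and log2 values used TMM-scaled CPM with a pseudocount of 4. A count of 0 was taken to allow 3 counts. SE was the log2 fold change divided by the square root of F. Shares were compared with exact permutation tests (scipy 1.17.1), on libraries with at least 10 reads. Figures were drawn with matplotlib 3.10.9. The test code was checked on simulated data, with the seed 1.

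The rule named all 7 HOX-cluster miRNAs and, for each tested one, the 2 miRNAs nearest in pattern. The 7 miRNAs and all lists were chosen with earlier results of these data known. None of the libraries was a copy of another.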

Additional observations from a re-analysis of the deposited data

How the results depend on the processing

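miR-10a-5p kept its direction and call in 14 of 14 alternatives of its own count and miR-10b-5p in 13 of 13, with adjusted p of at most 0.0380 and 0.0213. Against the 2 HOX-cluster miRNAs called, 1 was called with the GC trend removed, where 5 had a sequence and were tested, and 1 with the log2 fold limit of 2.5 at either threshold. Leaving out 1 library gave 2 to 3. Over all miRNAs, 123 were called. Without a filter the count was 240 of 1188, with a threshold of 0.01 it was 31, and with the fold limit as well 25. Leaving out 1 library gave 74 to 143, the lowest values being 74 without whole cell replicate 2 and 81 without replicate 3. miR-196a-5p changed sign with the GC trend removed (-0.00356) and ran from -3.54 to 1.08 with 1 library left out. miR-196b-5p ran from -3.87 to 0.28 with 1 library left out. The difference in the share of miR-196a-5p was 14.4 points after thinning, and -55.2 to 12.5 with 1 library left out. The value after thinning and both ends of that range each rest on only 1 EV library with at least 10 reads. Where a cause is not evident from fewer samples or miRNAs tested, the cause was not tested. The summed level without miR-10b-5p moved to a log2 ratio of 1.91. Scaling by RLE moved the median of all miRNAs by -0.20 on the log2 scale, and miR-10a-5p and miR-10b-5p then stood at 1.79 and 2.49. The labels pair no samples. A replicate block of neighbouring passages, added after seeing the data, called 56 of the 430 miRNAs, and miR-10a-5p and miR-10b-5p among them. It put miR-196a-5p at -2.29. The deviations of neighbouring passages had correlations of 0.0204, 0.0395 and -0.0172, so the libraries were not taken as pairs.

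Depth limits miR-615-3p, miR-196b-5p and miR-7704, which rest on 0 to 60 reads in the whole cell libraries. It also limits miR-10a-3p and miR-10b-3p, which had 15 and 9 reads in whole cell replicate 1.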
